A study of Mus musculus with 8 samples.

Results

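The IL-1 family and inflammasome genes described here were chosen from the mouse count table by their symbols, with no measured value used in the rule. They were the IL-1 family ligands Il1a, Il1b and Il18, the soluble antagonists Il1rn and Il18bp, the sensor Nlrp3, the adaptor Pycard, the caspases Casp1 and Casp4, and the pore-forming Gsdmd. They made up 10 of the 55487 gene identifiers in the table, and all 10 passed the filter on low counts, which kept 15411 genes. Mouse mRNA was measured in 4 libraries of untreated BMDC and in 4 libraries of BMDC-fer. Both groups were wild-type dendritic cells grown from the bone marrow of C57/bl6 mice in GM-CSF for 10 days. The cells of the BMDC-fer group had been co-cultured for 4 h with human Jurkat cells, an established T-cell leukemia line, that had been exposed for 14 h to 0.5 µM ML162, a compound that triggers ferroptosis, and had then been sorted for uptake of the dead cells. No sort and no contact with dead cells is described for the untreated BMDC, so sorting, co-culture and engulfment cannot be told apart in the comparison. The study describes the 4 samples of each group as independently collected. Which animals or cultures lay behind each was not stated, and p-values therefore measure the spread between these samples.

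IL-1α and IL-1β are the founding ligands of the IL-1 family and signal through the same receptor, whereas IL-1ra, the product of Il1rn, occupies that receptor without signalling. IL-18 is held in check by the secreted decoy IL-18BP. In the canonical inflammasome the sensor NLRP3 assembles with the adaptor ASC, encoded by Pycard, and recruits caspase-1, which cleaves pro-IL-1β, pro-IL-18 and gasdermin D. Mouse caspase-4, widely known as caspase-11, binds cytosolic lipopolysaccharide and also cleaves gasdermin D, whose N-terminal fragment forms pores in the plasma membrane. In myeloid cells the transcription of Nlrp3 and Il1b is classically raised by NF-κB during priming, while Pycard, Casp1 and Gsdmd are kept at a standing level. The measurements below are of mRNA and do not report cleavage or secretion.

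Total counts per library lay between 39326672 and 50532209. A floor of 3 counts corresponded to 0.0607 to 0.0785 CPM (mouse counts relative to library size, scaled by TMM factors). Without molecular identifiers reads are not independent molecules, and this floor covers counting error only. In each group, libraries 1 and 2 resembled each other, and so did libraries 3 and 4, more closely than libraries of different pairs did. The labels mark no batch there, and each gene is therefore also given within these replicate pairs. Of the dendritic cell markers, Cd74 was the most abundant, at 3806 to 9568 CPM in BMDC and 1400 to 4808 CPM in BMDC-fer, and Itgax was present in every library at 748 to 1406 CPM. Macrophage markers were present too, with a summed level of 2324 to 3433 CPM in BMDC and 2833 to 4468 CPM in BMDC-fer over 10 genes. Of these, 8 had a higher and 2 a lower fitted value. Csf1r, the most abundant in BMDC, was at 714 to 1215 CPM, and the only one called, Adgre1, fell (log2 fold change -0.81, edgeR adjusted p = 0.0119). The summed level of 10 dendritic cell markers was 6836 to 14957 CPM in BMDC and 3237 to 7399 CPM in BMDC-fer. All 10 of these were lower and 4 of 10 were called as fallen, where 5.91% of all genes tested fell. Of 10 neutrophil markers, 10 were lower and 5 were called as fallen, and S100a9 was the most abundant in BMDC. Their summed level was 46.2 to 265 CPM in BMDC and 14.1 to 44.6 CPM in BMDC-fer. For 10 mast cell and basophil markers it was 37.5 to 68.8 and 15.1 to 35.1 CPM, most of it Kit and Gata2, with Mcpt4 at 0 counts in every library, and for 5 B cell markers 0.368 to 1.44 and 0.404 to 0.602 CPM, with Cd79a the most abundant in BMDC. Of 10 T cell markers, the lineage of the engulfed Jurkat cells, the sum was 29.9 to 43.1 CPM in BMDC and 29.3 to 54.1 CPM in BMDC-fer, most of it Cd28, and Trac and Bcl11b did not exceed 3 counts in any library. Calls of markers used the thresholds given below. The part of these markers in the results below was not tested. In bulk RNA, fewer cells of a type and less RNA per cell cannot be told apart.

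Il1a lies on chromosome 2 at 129299610 to 129309972 (GRCm38, the build named mm10 in the submitters' processing notes, minus strand), and Il1b lies on the same strand at 129364570 to 129371139, with 54597 bases between them. Casp1 (chromosome 9, 5298517 to 5307265) and Casp4 (5308828 to 5336783) are separated by only 1562 bases on the plus strand. Il1rn is also on chromosome 2 (24336853 to 24351494), Il18 on chromosome 9 (50554827 to 50581840), Il18bp and Pycard on chromosome 7 (102014885 to 102018690 and 127989708 to 127993867), Nlrp3 on chromosome 11 (59541568 to 59566956) and Gsdmd on chromosome 15 (75862327 to 75867408). The start regions of Nlrp3, the gene that passed the test, and of the adjacent pairs Il1a and Il1b, and Casp1 and Casp4, are printed here so that neighbours can be compared. RefSeq start regions, each of 250 bases before and 50 bases after a start, were found for 9 of the 10 genes, in 13 windows. Each is given 5′ to 3′ on the gene's own strand (GRCm38.p6), and capitals mark matches on either strand to an NF-κB motif (GGGANNNNCC), an AP-1 motif (TGANTCA) or a TATA box (TATAAA).
Nlrp3, chr11:59541319-59541618, plus strand: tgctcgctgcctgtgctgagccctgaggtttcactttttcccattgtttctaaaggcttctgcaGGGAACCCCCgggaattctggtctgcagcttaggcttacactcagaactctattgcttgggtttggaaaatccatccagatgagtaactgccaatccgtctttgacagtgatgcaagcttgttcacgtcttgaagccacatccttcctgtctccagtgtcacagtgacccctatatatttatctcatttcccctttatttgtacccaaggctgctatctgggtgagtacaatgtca
Il1a, chr2:129309923-129310222, minus strand: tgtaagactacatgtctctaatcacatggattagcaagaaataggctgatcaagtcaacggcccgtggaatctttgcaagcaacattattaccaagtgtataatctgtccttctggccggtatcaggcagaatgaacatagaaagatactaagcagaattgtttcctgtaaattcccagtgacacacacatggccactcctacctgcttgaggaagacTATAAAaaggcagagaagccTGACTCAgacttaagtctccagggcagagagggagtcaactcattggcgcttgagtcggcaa
Il1b, chr2:129371090-129371389, minus strand: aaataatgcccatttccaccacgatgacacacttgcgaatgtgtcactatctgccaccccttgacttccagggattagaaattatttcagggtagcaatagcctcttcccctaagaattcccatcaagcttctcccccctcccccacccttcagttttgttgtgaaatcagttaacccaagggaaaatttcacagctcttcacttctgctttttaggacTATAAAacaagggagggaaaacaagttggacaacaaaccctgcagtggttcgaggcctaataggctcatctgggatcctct
Casp1, chr9:5298267-5298566, plus strand: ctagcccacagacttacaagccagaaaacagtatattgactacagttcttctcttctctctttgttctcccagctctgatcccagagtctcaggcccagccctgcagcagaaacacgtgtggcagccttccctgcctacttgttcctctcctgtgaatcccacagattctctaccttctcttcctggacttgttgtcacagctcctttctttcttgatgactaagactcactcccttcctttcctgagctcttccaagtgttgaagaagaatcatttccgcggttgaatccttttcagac
Casp4, chr9:5308599-5308898, plus strand: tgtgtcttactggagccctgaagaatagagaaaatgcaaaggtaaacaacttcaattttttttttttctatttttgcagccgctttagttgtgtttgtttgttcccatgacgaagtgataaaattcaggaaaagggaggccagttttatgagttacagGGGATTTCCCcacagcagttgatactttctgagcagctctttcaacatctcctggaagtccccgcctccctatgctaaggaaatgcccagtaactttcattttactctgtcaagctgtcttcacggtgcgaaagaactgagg

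The printed Nlrp3 window held GGGAACCCCC, 186 bases upstream of its start, and the printed Casp4 window held GGGATTTCCC, 92 bases upstream, both matching the NF-κB letters. RefSeq gives Nlrp3 another start, whose window (chr11:59542436-59542735) held none of the motifs, and the other Casp4 window held the same NF-κB match 103 bases upstream. Among 32851 RefSeq windows of the same length, 20.7% held such a match. The Il1a and Il1b windows each held TATAAA, 32 and 31 bases upstream, against 13.6% of all windows. Il1a differed from its neighbour by TGACTCA, 12 bases upstream, in a motif present in 7.81% of windows. The Casp1 window held none of these letters. These matches describe the printed letters and are not evidence of binding.

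Across the 10 genes, only Nlrp3 was called in the comparison of BMDC-fer with BMDC, where a call required an adjusted p at or under 0.05 together with a log2 fold change of at least 0.58 in size (edgeR's quasi-likelihood test, Benjamini-Hochberg adjustment over all 15411 genes). That is 1 of 10, where 9.38% of all genes tested were called, so the share of the 10 genes was near the background. Of the genes, 7 had a higher and 3 a lower fitted value, with a median log2 fold change of 0.35, against 0.00069 over all genes tested. Il18bp, Nlrp3 and Casp1 had an adjusted p of 0.05 or less regardless of fold, 3 of 10 where the background was 12%. With the replicate number as a block, edgeR called 0 of 10, where 13% of all genes were called, and 5 of 10 had an unadjusted p under 0.05. Of these, Il18bp and Casp1 passed on the adjusted p alone, 2 of 10 against 16.2%. DESeq2 called 1 of 10 without the block (14.7% of all genes) and 2 of 10 with it (17.9%), both near the background. For 4 genes, Il1rn, Il18bp, Nlrp3 and Casp1, the 4 BMDC-fer libraries did not overlap with the 4 BMDC libraries, where 22.9% of all genes did not overlap.

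**Figure D1:**
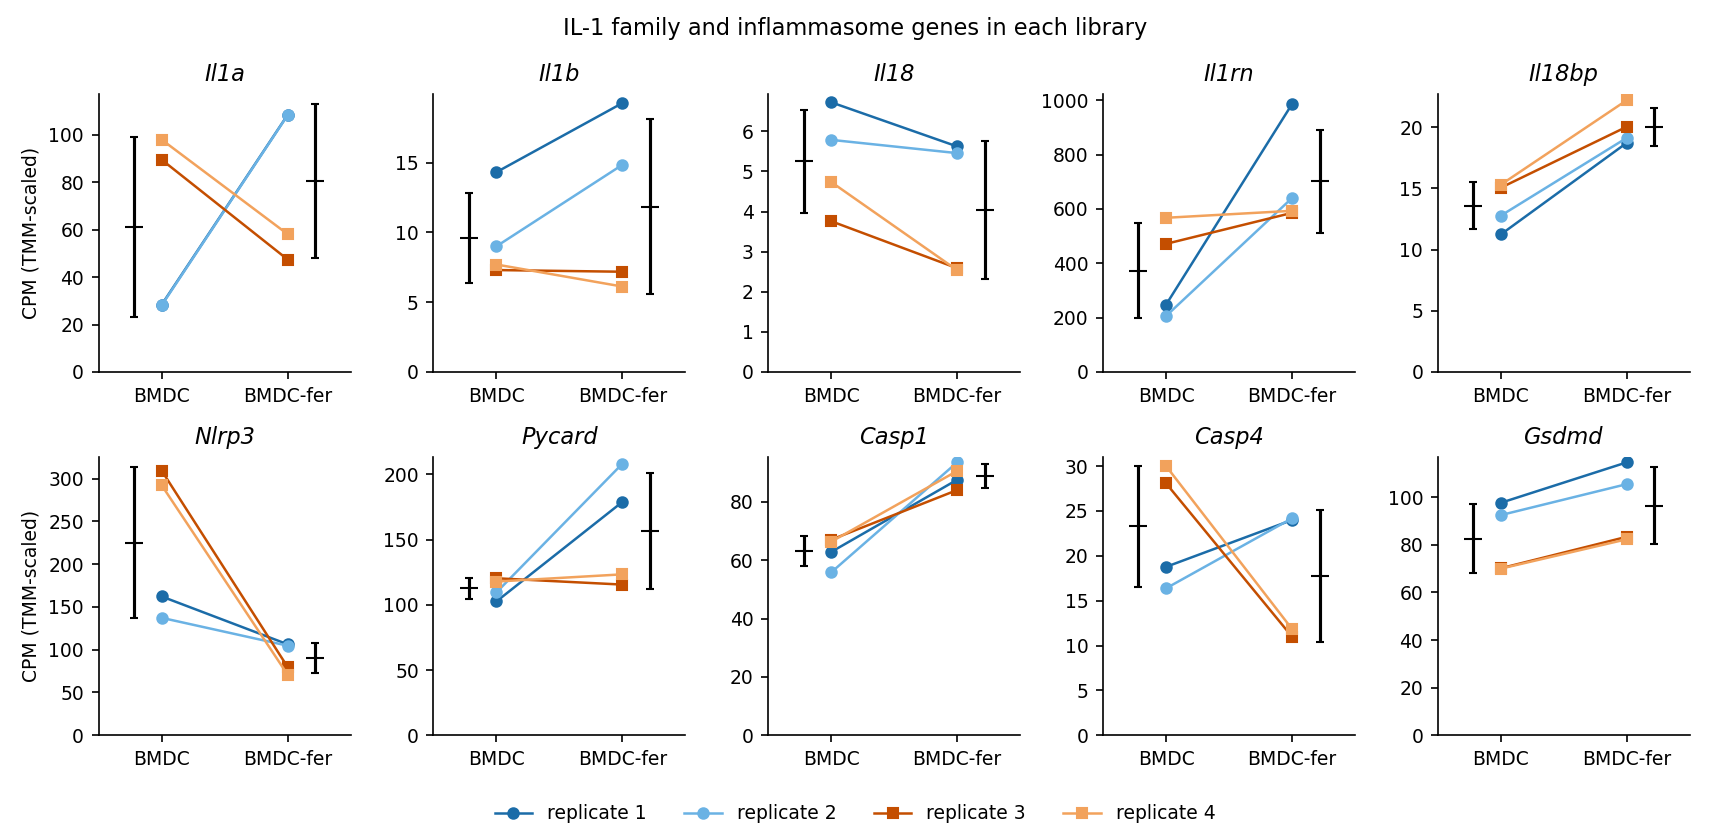
Level of each of the 10 genes in CPM (TMM-scaled, linear axis from 0) in BMDC and BMDC-fer, with a line joining libraries of the same replicate number and a black bar for the mean ± SD of 4 libraries. Nlrp3 lies between 137 and 309 CPM in BMDC and between 70.8 and 106 CPM in BMDC-fer, whereas the lines of Il1a run up in replicates 1 and 2, which lie nearly on top of each other, and down in replicates 3 and 4.

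Nlrp3, the sensor, was at 162, 137, 309 and 292 CPM in BMDC replicates 1 to 4 and at 106, 105, 79.7 and 70.8 CPM in BMDC-fer replicates 1 to 4. Every BMDC-fer library was below every BMDC library, and the BMDC libraries themselves fell into a lower pair (1 and 2) and a higher pair (3 and 4). The means were 225 ± 88.0 and 90.4 ± 17.8 CPM (SD, n = 4), a 2.49-fold fall in the fit (log2 fold change -1.32, SE 0.28, edgeR adjusted p = 0.0235). The exact two-sided permutation test of the 4 against 4 libraries gave p = 0.0286, the smallest that 70 free splits allow. It ignores the replicate numbers and the replicate pairs. With the replicate number as a block, the edgeR adjusted p was 0.0520 and the call was lost. With the replicate pair as a covariate, a split not given by the labels, the edgeR adjusted p was 0.0124 and the call was kept. DESeq2 gave an adjusted p of 0.000303 without the block and 0.000745 with it. Leaving out BMDC replicates 3 or 4 gave an edgeR adjusted p of 0.0522 and 0.0540, and leaving out BMDC-fer replicates 2, 3 or 4 gave 0.0506, 0.0654 and 0.0749, so that the call was lost in these 5 of 8 fits.

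Pycard, which encodes the adaptor ASC, was at 103, 110, 120 and 118 CPM in BMDC and at 179, 208, 116 and 123 CPM in BMDC-fer. Replicates 1 and 2 of BMDC-fer were above every BMDC library, while replicates 3 and 4 lay within or just above their range. The means were 113 ± 8.10 and 157 ± 44.6 CPM (SD, n = 4), and the log2 fold change was 0.47 (SE 0.19, edgeR adjusted p = 0.136). The gene overlaps Gm45205 on the opposite strand over 485 bases, and 11.8% of its 50-base words also occur in Gm45205 or Mvp. Gm45205 had 2 to 22 counts per library.

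Casp1, the protease that matures IL-1β and IL-18, was at 62.9, 55.8, 67.0 and 66.4 CPM in BMDC and at 87.6, 93.6, 84.1 and 90.6 CPM in BMDC-fer. All BMDC-fer libraries were above all BMDC libraries, with means of 63.0 ± 5.13 and 89.0 ± 4.07 CPM (SD, n = 4). The log2 fold change of 0.50 (SE 0.094) had an edgeR adjusted p of 0.0146 but was under the fold threshold, so the gene was not called. Without BMDC-fer replicate 4 the edgeR adjusted p was 0.0518, and in the other 7 fits that left out 1 library it stayed under 0.05.

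Casp4, whose product senses cytosolic lipopolysaccharide, was at 18.8, 16.4, 28.1 and 30.0 CPM in BMDC and at 24.0, 24.2, 11.0 and 11.9 CPM in BMDC-fer. The groups overlapped, since the BMDC-fer libraries were above their same-numbered BMDC libraries in replicates 1 and 2 and below them in replicates 3 and 4. The pooled means of 23.3 ± 6.74 and 17.8 ± 7.32 CPM (SD, n = 4) did not differ beyond this spread (log2 fold change -0.39, SE 0.32, edgeR adjusted p = 0.444). Its neighbour Casp1 was higher in BMDC-fer in all 4 replicate numbers.

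Gsdmd, the substrate of both caspases, was at 97.6, 92.4, 70.1 and 70 CPM in BMDC and at 115, 105, 83.3 and 82.3 CPM in BMDC-fer. The groups overlapped because replicates 3 and 4 were lower than replicates 1 and 2 in each, yet BMDC-fer was higher in all 4 same-numbered pairs. The log2 fold change of 0.22 (SE 0.16) did not pass the test (edgeR adjusted p = 0.387), with means of 82.5 ± 14.6 and 96.4 ± 16.1 CPM (SD, n = 4).

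Il1a, an IL-1 ligand that is active without cleavage by caspase-1, was at 28.4, 28.1, 89.5 and 98.0 CPM in BMDC and at 108, 108, 47.4 and 58.1 CPM in BMDC-fer. The highest values of one group thus belonged to replicates 3 and 4 and those of the other to replicates 1 and 2. Means were 61.0 ± 38.0 and 80.6 ± 32.4 CPM (SD, n = 4), and the pooled log2 fold change of 0.40 (SE 0.48, edgeR adjusted p = 0.602) stands for no single library pair. Gm14023 overlaps Il1a on the opposite strand over 222 bases and had 56 to 171 counts, against 1232 to 5361 for Il1a. Use of strand in counting was not stated, so reads of such overlapping genes cannot be told apart.

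Il1b, the ligand whose precursor caspase-1 cleaves, was at 14.3, 9.01, 7.30 and 7.70 CPM in BMDC and at 19.3, 14.9, 7.18 and 6.12 CPM in BMDC-fer. Replicates 3 and 4 were within a narrow band in both groups, and the groups overlapped. Means were 9.58 ± 3.24 and 11.9 ± 6.29 CPM (SD, n = 4; log2 fold change 0.31, SE 0.39, edgeR adjusted p = 0.627). Without BMDC-fer replicate 1 the log2 fold change was -0.019. Per kilobase of exon, the level of Il1a was 1.91, 3.02, 11.8 and 12.3 times that of Il1b in BMDC replicates 1 to 4 and 5.43, 7.05, 6.38 and 9.17 times in BMDC-fer replicates 1 to 4. Il1a thus exceeded Il1b in every library, by a factor that differed most between the replicate pairs of BMDC. The exon length merges all transcripts, 1907 bases for Il1b against 1356 in its longest transcript, so the size of the factor depends on it.

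Il18 was at 6.72, 5.79, 3.76 and 4.74 CPM in BMDC and at 5.62, 5.46, 2.59 and 2.54 CPM in BMDC-fer. It was lower in BMDC-fer in all 4 same-numbered pairs, but the groups overlapped. The means were 5.25 ± 1.28 and 4.05 ± 1.72 CPM (SD, n = 4), and the log2 fold change of -0.37 (SE 0.33) did not pass the test (edgeR adjusted p = 0.481).

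Il1rn, the gene of the IL-1 receptor antagonist, was at 247, 206, 471 and 567 CPM in BMDC and at 986, 640, 586 and 593 CPM in BMDC-fer. All BMDC-fer libraries lay above all BMDC libraries, although BMDC replicate 4 came close to the lowest of them. The means were 373 ± 174 and 701 ± 191 CPM (SD, n = 4), with a log2 fold change of 0.91 (SE 0.34). The gene was not called by edgeR (adjusted p = 0.113) or by DESeq2 (adjusted p = 0.0505), but it was called by DESeq2 with the replicate block (log2 fold change 1.00, adjusted p = 0.0157). The exact two-sided permutation test, which ignores the replicate numbers and pairs, gave p = 0.0286.

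Il18bp, the decoy of IL-18, was at 11.2, 12.8, 15.1 and 15.3 CPM in BMDC and at 18.7, 19.1, 20 and 22.2 CPM in BMDC-fer. The groups did not overlap, and the means were 13.6 ± 1.94 and 20 ± 1.56 CPM (SD, n = 4). The log2 fold change of 0.56 (SE 0.14) had an edgeR adjusted p of 0.0355 and missed the fold threshold. In each of the 8 fits that left out 1 library the edgeR adjusted p rose to between 0.0533 and 0.0985. Il18bp overlaps Numa1 on the opposite strand over 80 bases, and Numa1 had 3037 to 6115 counts per library, so its values are uncertain where strand was not used.

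Per kilobase of exon, the mean level in BMDC ran from Il1rn (67.4 CPM per kb) through Nlrp3 (55.5), Casp1 (42.1), Gsdmd (34.7), Il1a (30.9) and Pycard (29.6) to Casp4 (6.28), Il18 (5.09), Il1b (5.03) and Il18bp (4.49). In that order only Pycard and Casp4 had ranges that did not overlap. In BMDC-fer the order was Il1rn (127 CPM per kb), Casp1 (59.4), Pycard (41.2), Il1a (40.8), Gsdmd (40.6), Nlrp3 (22.3), Il18bp (6.62), Il1b (6.22), Casp4 (4.78) and Il18 (3.93). There, Il1rn was apart from Casp1, Casp1 from Pycard, Gsdmd from Nlrp3 and Nlrp3 from Il18bp, while the other neighbours overlapped. Within single libraries Nlrp3 was at place 4 of 10 in BMDC replicates 1 and 2, at place 2 in BMDC replicates 3 and 4, and at place 6 in all 4 BMDC-fer libraries. The order and these places depend on the exon length used, which merges all transcripts of a gene. It was 5535 bases for Il1rn against 2554 in the longest transcript, 3710 against 1901 for Casp4 and 2377 against 1792 for Gsdmd. For Il1a, Casp1 and Pycard both lengths were equal.

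For 5 of the 10 genes, Il1a, Il1rn, Nlrp3, Pycard and Casp4, the effect was not the same in the first replicate pair (1 and 2) as in the second (3 and 4), by an interaction test in edgeR with an adjusted p at or under 0.05. Over all genes tested this share was 37.8%. The replicate pairs were set by the likeness of these same libraries and not by the labels. The test uses the spread between the libraries inside a replicate pair, which that choice makes smaller than the spread inside a group. Its p-values, and those within a replicate pair, can therefore be too small. In replicates 1 and 2, Il1a was higher in BMDC-fer by 1.94 on the log2 scale (SE 0.10), and in replicates 3 and 4 it was lower, at -0.83 (SE 0.10). The difference of -2.77 had an adjusted p of 3.32e-05, the smallest of the 10 genes. Of the 10 genes, 1, Il1a, was called in opposite directions in the replicate pairs, where the background was 1.62%. Casp4 also changed sign, from 0.45 to -1.35 (adjusted p of the difference 9.75e-05), although the first of these effects was under the fold threshold. On the adjusted p alone, Il1a and Casp4 were thus 2 of 10 with opposite effects, against 5.67% of all genes. In the contrasts of this joint fit, which shares 1 estimate of the spread over all 8 libraries, replicates 1 and 2 gave 5 of 10 called (background 22.3%) and 8 of 10 with a passing adjusted p (39.6%), and replicates 3 and 4 gave 4 of 10 (33%) and 7 of 10 (50.5%).

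**Figure D2:**
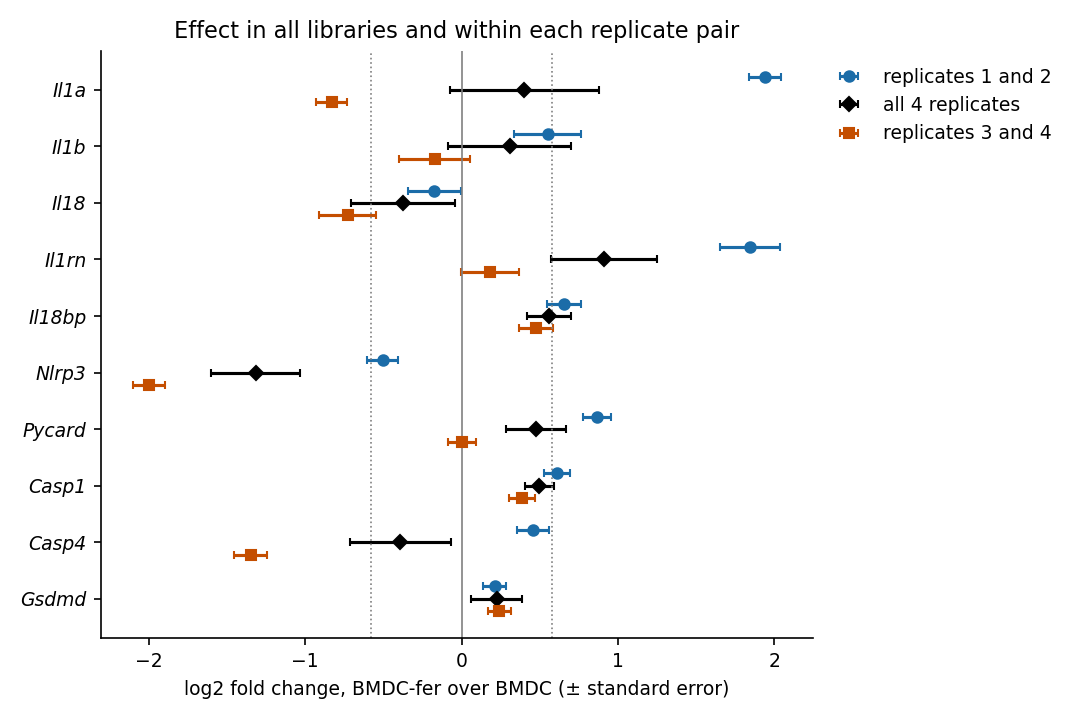
Log2 fold change of each gene, BMDC-fer over BMDC, in replicates 1 and 2 (circles), in replicates 3 and 4 (squares) and over all 4 replicates (diamonds), each ± SE, with dotted lines at the fold threshold of 0.58 in either direction. Il1a and Casp4 lie on opposite sides of 0 in the replicate pairs, Nlrp3 lies at -0.51 and -2.00, and Gsdmd lies at 0.21 and 0.24.

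The other 3 genes differed in size rather than in sign. The log2 fold change of Nlrp3 was -0.51 in the first replicate pair and -2.00 in the second (adjusted p of the difference 0.000148). Il1rn was higher by 1.84 and 0.18 (0.00168), and Pycard by 0.87 and 0.0038 (0.00114), so that both were higher mainly in replicates 1 and 2. For Casp1 the effects were 0.61 and 0.39, for Il18bp 0.66 and 0.48, and for Gsdmd 0.21 and 0.24, and the adjusted p of the difference was 0.172, 0.382 and 0.842. With Nlrp3, these 3 genes had the same direction and an adjusted p of 0.05 or less in both replicate pairs, 4 of 10 where 17.5% of all genes did. This rests on the joint fit, since Gsdmd had an edgeR adjusted p of 0.132 when replicates 1 and 2 were fitted alone. Il1b (0.55 and -0.17) and Il18 (-0.17 and -0.73) had an adjusted p of the difference of 0.0985 and 0.113. Within a replicate pair each group holds 2 libraries only.

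Because ligand and antagonist were measured in the same library, their ratio does not depend on library scaling. The log2 ratio of Il1a and Il1b together to Il1rn was -2.53, -2.47, -2.28 and -2.42 in BMDC and -2.95, -2.38, -3.42 and -3.21 in BMDC-fer. It was lower in BMDC-fer in 3 of 4 same-numbered pairs, with a mean difference of -0.56 and overlapping groups (exact two-sided permutation p = 0.114, Benjamini-Hochberg adjusted over 3 ratios 0.171). The difference was -0.16 in the first replicate pair and -0.96 in the second, and flipping the signs of the 4 paired differences gave an exact p of 0.25. Without BMDC-fer replicate 2 the difference was -0.76 with an exact permutation p of 0.0286. The BMDC values thus lay within a narrow band, although Il1a and Il1rn each varied widely among these libraries.

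**Figure D3:**
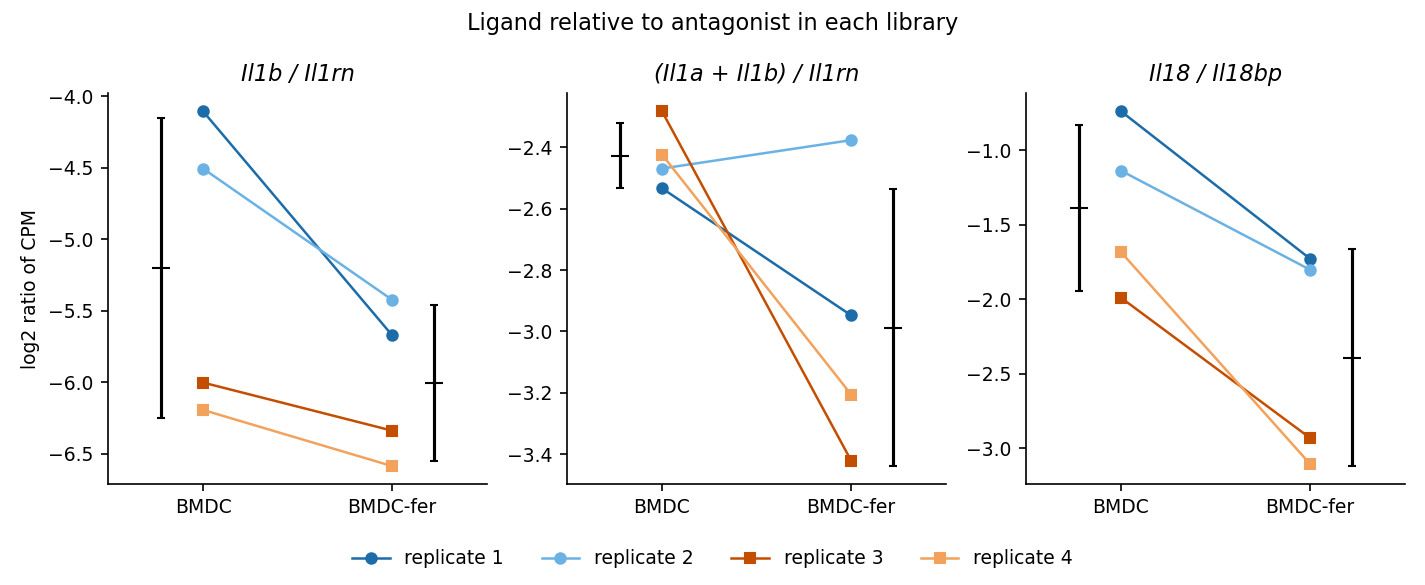
Log2 ratio of CPM of ligand to antagonist in each library for Il1b over Il1rn, Il1a and Il1b over Il1rn, and Il18 over Il18bp, with lines joining libraries of the same replicate number and a black bar for the mean ± SD of 4 libraries. The groups overlap in all 3 ratios, and the ratio is lower in BMDC-fer in 4, 3 and 4 of the 4 replicate numbers.

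The log2 ratio of Il1b alone to Il1rn averaged -5.20 ± 1.05 in BMDC and -6.01 ± 0.55 in BMDC-fer (SD, n = 4, exact permutation p = 0.257). It was lower in BMDC-fer in 4 of 4 same-numbered pairs, with -1.24 in the first replicate pair and -0.36 in the second. For Il18 over Il18bp the means were -1.39 ± 0.56 and -2.39 ± 0.73 (SD, n = 4), a difference of -1.01 that was also present in 4 of 4 pairs, with -0.83 in the first replicate pair and -1.18 in the second. Its exact permutation p was 0.114 (adjusted 0.171). The exact sign-flip p was 0.125 for Il18 over Il18bp and for Il1b over Il1rn, the smallest that 4 pairs allow.

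The rest of the pathway was read from the same fit over 52 genes in 4 lists, of which 45 passed the filter on low counts. Of these, 2 rose and 6 fell, and their median log2 fold change was -0.13. Among all genes tested, 3.47% rose and 5.91% fell. The 19 receptors and proximal signalling genes held 5 of the 6 falls, with a median log2 fold change of -0.39. There, 0 rose by edgeR or DESeq2, and 1 had a rise with an unadjusted p under 0.05 in each. With the replicate block 7 of the 19 were called, where 13% of all genes tested were called in that fit. These were the fallen genes other than Traf6 together with Irak3, Il1rl1 and Tab3. Il1rl1, the receptor of IL-33, was lower in 4 of 4 same-numbered pairs (log2 fold change -2.64 and edgeR adjusted p = 0.0114 with the block, 0.173 without it), and Tab3, an adaptor of TAK1, was lower in 4 of 4 pairs too (-0.87 and 0.0447 with the block, 0.0521 without it).

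Il1r2, the decoy receptor that binds IL-1 without signalling, was at 186, 122, 216 and 206 CPM in BMDC and at 73.0, 39.4, 37.8 and 28.4 CPM in BMDC-fer. It fell 4.09-fold (log2 fold change -2.03, SE 0.31, edgeR adjusted p = 0.00690), with no overlap. The chains of the IL-18 receptor fell together. Il18r1 went from 18.9 ± 10.0 to 1.44 ± 1.40 CPM (SD, n = 4; log2 fold change -3.70, SE 0.70, edgeR adjusted p = 0.0142) and Il18rap from 43.1 ± 22.8 to 9.78 ± 5.88 CPM (-2.14, SE 0.49, 0.0280). Both were highest in replicates 1 and 2 of each group, and neither group overlapped with the other. Sigirr, an inhibitory receptor of the family, fell from 7.31 ± 1.52 to 2.91 ± 0.753 CPM (log2 fold change -1.33, SE 0.24, edgeR adjusted p = 0.0131).

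Traf6, a ubiquitin ligase downstream of the receptors, was at 45.1, 48.2, 153 and 160 CPM in BMDC but at 34 to 35.8 CPM in all BMDC-fer libraries. Its BMDC values split between the replicate pairs, as did those of Nlrp3. The log2 fold change was -1.54 (SE 0.42, edgeR adjusted p = 0.0466), and -0.45 in replicates 1 and 2 against -2.14 in replicates 3 and 4. With the replicate block its adjusted p was 0.0634. The signalling receptor Il1r1 was at 1.54 to 4.26 CPM over all libraries and its log2 fold change of -0.39 had an edgeR adjusted p of 0.354. Irak3 (0.57, adjusted p 0.0269), an inhibitor of the pathway, and Tab2 (-0.53, 0.0130), an adaptor of the kinase TAK1, missed the fold threshold, and Irak3 was called with the replicate block (edgeR adjusted p = 0.0222).

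**Figure D4:**
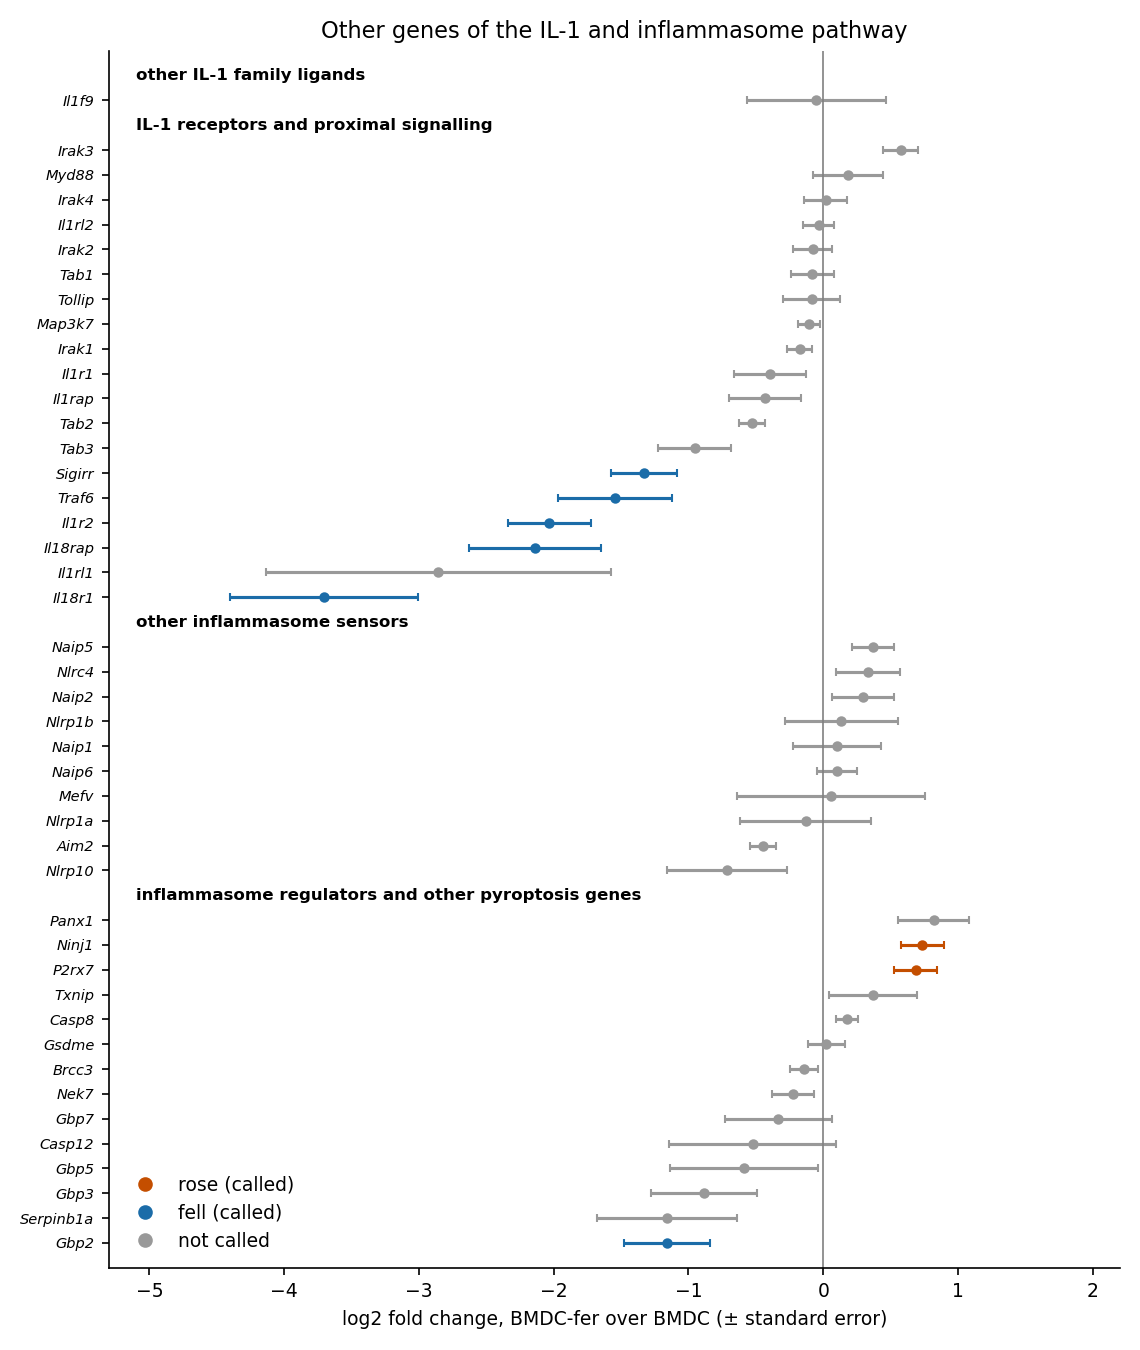
Log2 fold change, BMDC-fer over BMDC, ± SE of the tested genes of the 4 pathway lists, with 1 gene that is not reported here left out, coloured by whether the gene rose, fell or was not called. The falls sit mainly in the list of receptors and proximal signalling genes, with Il18r1 at -3.70, and the rises, P2rx7 and Ninj1, in the list of regulators and other pyroptosis genes.

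Of 15 regulators and other pyroptosis genes, 2 rose and 1 fell (median log2 fold change -0.22). P2rx7, the ATP-gated channel that triggers NLRP3, was at 39.3 to 58.5 CPM in BMDC and 63.5 to 87.2 CPM in BMDC-fer (log2 fold change 0.69, SE 0.16, edgeR adjusted p = 0.0282). Ninj1, which mediates rupture of the plasma membrane in dying cells, was at 78.1 to 117 CPM in BMDC and 150 to 188 CPM in BMDC-fer (0.74, SE 0.16, 0.0245). Gbp2, an interferon-inducible GTPase that acts on cytosolic bacteria, fell from 137 ± 53.3 to 61.3 ± 20.3 CPM (SD, n = 4; -1.16, SE 0.32, edgeR adjusted p = 0.0483). The channel and the rupture protein were thus higher in BMDC-fer while the sensor was lower.

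Of 10 other inflammasome sensors 0 were called by edgeR or by DESeq2, 2 had an unadjusted p under 0.05 in either, and their median log2 fold change in edgeR was 0.10. By edgeR, 1 had an adjusted p under 0.05. This was Aim2, the sensor of cytosolic DNA, which went from 77.5 ± 3.84 to 56.9 ± 4.78 CPM (SD, n = 4) (edgeR log2 fold change -0.45, adjusted p = 0.0229). The highest and lowest were Naip5 (0.37, SE 0.16, adjusted p 0.150) and Nlrp10 (-0.71, SE 0.45, adjusted p 0.315). Of 6 other IL-1 family ligands only Il1f9 (IL-36γ) was tested, at 9.27 to 38.3 CPM and a log2 fold change of -0.052 (SE 0.51, edgeR adjusted p = 0.956), and the other 5, Il33 among them, did not exceed 13 counts in any library.

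Several of these calls were lost when 1 library was left out, in fits that also called fewer of all genes (565 to 1440). The fold changes stayed similar, between 0.59 and 0.84 for P2rx7 and between -1.34 and -0.91 for Gbp2. Il18rap lost its call without BMDC replicate 1 (edgeR adjusted p = 0.0520) and without BMDC-fer replicates 2, 3 or 4 (0.0738, 0.0718 and 0.0816), and Sigirr without BMDC-fer replicate 4 (0.0526). Traf6 was lost without BMDC replicates 3 or 4 (0.103 and 0.102) and without any of BMDC-fer replicates 1 to 4 (0.101, 0.106, 0.104 and 0.118). P2rx7 was lost without BMDC replicates 1, 3 or 4 (0.0602, 0.0724 and 0.0744) and BMDC-fer replicates 1, 2 or 4 (0.0544, 0.0755 and 0.0831). Ninj1 was lost without BMDC-fer replicates 1, 2 or 4 (0.0544, 0.0578 and 0.0531), and Gbp2 in each of the 8 fits (0.0503 to 0.134). Il1r2 and Il18r1 kept their call in all 8 fits.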

How the data were processed

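Per the labels and the study's methods, mRNA of BMDC and sorted BMDC-fer was enriched on oligo(dT) beads. The authors aligned reads by HISAT2, assigned them to genes by featureCounts and deposited raw counts of mouse genes, which were used without change. CASAVA, DESeq2 and the build mm10 are also named in the submitters' processing notes, without versions. The annotation and use of strand are not given in the sources used here. Symbols, coordinates and exon lengths were taken from GENCODE M21 (GRCm38), where 55141 of 55487 identifiers had one.

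Counts were tested in R 4.3.3 with edgeR 4.0.16 (TMM, filterByExpr with a minimum count of 10, quasi-likelihood test, Benjamini-Hochberg adjustment over all 15411 genes). A call required an adjusted p at or under 0.05 and a log2 fold change of at least 0.58 in size. CPM values were scaled by TMM, and per kilobase levels divide them by the exon union. Single genes and log2 ratios were compared by exact two-sided permutation of log2(CPM + 0.05), with libraries taken as exchangeable across replicate numbers and pairs. An edgeR interaction term tested the difference between replicates 1 and 2 and replicates 3 and 4, a split taken from these same libraries. Same-numbered BMDC and BMDC-fer libraries deviated together from their group means (r between 0.333 and 0.470, mean 0.392, across genes, which are not replicates). Where the numbers differed but fell in one replicate pair, the mean r was nearly as high, at 0.320. Across opposite replicate pairs it was -0.355. The likeness thus mostly follows the replicate pairs, and matching by number within them rests mainly on the labels. On that basis the shared numbers were taken to pair the libraries, and the replicate number was fitted as a block in an alternative. DESeq2 1.42.0, other normalizations and filters, a covariate for the replicate pairs and leaving out each library were further alternatives. No replicates differed by less than sampling noise. The scripts were tested on simulated counts.

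The members, the pathway and marker lists and the tests were chosen with earlier results of these data known. Named are all 10 genes, every called gene of a pathway list and, in a list with none called, the highest and lowest fold change. Of the marker lists, the most abundant genes and those at or under 3 counts in every library are named. Itgax, Adgre1, Il1r1, Il1rl1, Irak3, Tab2, Tab3, Aim2 and Il33 were chosen after their values were seen. Human counts were not analysed here.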

Additional observations from a re-analysis of the deposited data

Results flagged for a closer look

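The effect of the treatment differed between replicates 1 and 2 and replicates 3 and 4 (edgeR interaction test, Benjamini-Hochberg adjusted p) for 5 of the 10 genes. The adjusted p was 3.32e-05 for Il1a, 9.75e-05 for Casp4, 0.000148 for Nlrp3, 0.00114 for Pycard and 0.00168 for Il1rn. Among the pathway genes named above, it was 3.88e-05 for Traf6, 0.00114 for Ninj1, 0.00140 for Nlrp10, 0.00229 for Tab3 and 0.0378 for Il1r2. Over all genes tested, 37.8% passed the same threshold. The replicate pairs were set by the likeness of these same libraries, so these p-values can be too small. The replicate pairs differ in both groups and the labels give no batch, so what separates them was not tested.

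One library stood apart in 1 of 48 groups of 4 libraries examined. For Il1rn, BMDC-fer replicate 1 was at 986 CPM against 586 to 640 CPM in the other three, and its gap to the nearest of them took up 0.8293 of the range of the group, just above Dixon's critical value at the 95% level. Chance alone would flag about 2.4 of 48 groups. Without that library the log2 fold change of Il1rn was 0.71 with an edgeR adjusted p of 0.230.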

How the results depend on the processing

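Of the 10 genes, 1 was called (Nlrp3). With the replicate block 0 were called, with DESeq2 and the replicate block 2, in replicates 1 and 2 alone 5, in replicates 3 and 4 alone 4, and with 1 library left out between 0 and 1. Over all genes, 1445 of 15411 tested were called. This became 2261 with DESeq2, 2759 with DESeq2 and the replicate block, and 2815 with the replicate pair as a covariate. In the replicate pairs alone it became 3062 of 15749 and 5604 of 15693, and with 1 library left out 565 to 1440. Of the 45 pathway genes tested, 8 were called. This became 13 with DESeq2 and the replicate block, where 17.9% of all genes were called, and 14 in replicates 3 and 4 alone. With 1 library left out it became 2 to 9. Calls over all genes also rose in the first 2 of these fits, so the larger counts are not a result about the pathway. The replicate block ended the calls of Nlrp3 and Traf6, added those of Irak3, Il1rl1 and Tab3, and changed no other call among the 10 genes and the receptors and proximal signalling genes. Sign changed for Il1a (-0.82) and Il1b (-0.16) in replicates 3 and 4 alone, for Casp4 (0.46) in replicates 1 and 2 alone, and for Nlrp10 (0.58) in replicates 3 and 4 alone. Il1f9 was at 0.032 with the block, 0.029 with DESeq2 and the block, 0.079 with the covariate, 0.40 in replicates 1 and 2 alone and -0.38 to 0.33 with 1 library left out. With 1 library left out, Il1b ranged from -0.019 to 0.57 and the difference of Gsdmd between replicate pairs from -0.011 to 0.090. The log2 ratio difference of Il1a and Il1b to Il1rn then ranged from -0.76 to -0.42, that of Il1b to Il1rn from -1.13 to -0.44 and that of Il18 to Il18bp from -1.23 to -0.77. The difference between replicate pairs passed for 5 to 6 of the 10 genes with 1 library left out, and for 3960 to 5726 genes against 5829. The cause of these changes was not tested, beyond the fewer libraries in some fits. Other size factors and filters on low counts kept the call of Nlrp3 and no other of the 10 genes was then called. Il18bp had an adjusted p of 0.0576 without a filter on low counts. Of the 10 genes the least covered ligands were Il18, with 97 to 292 counts per library, and Il1b, with 234 to 953.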
